A study of Homo sapiens with 40 samples.

Results

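The HOX genes were examined as the 39 protein-coding genes of the HOXA, HOXB, HOXC and HOXD clusters, and their accessible chromatin was taken from 40 ATAC-seq peak lists. Peaks of all lists that shared at least 1 bp were merged into regions, regions found in at least 2 lists were kept, and a region was assigned to the HOX genes if its midpoint lay in a HOX gene body or within 5 kb of either end. This gave 64 HOX regions of 71600 regions in all, with 12 regions at HOXA on chromosome 7, 23 at HOXB on chromosome 17, 23 at HOXC on chromosome 12 and 6 at HOXD on chromosome 2. Because the genes are packed closely and overlap, 38 of the 64 regions were assigned to more than 1 gene. BT474 is a breast ductal carcinoma line with high HER2 and responds to trastuzumab, an antibody against HER2, and BT474R is a single resistant clone (clone 5) derived from it by growth in trastuzumab. Both lines were starved of serum. They were collected at baseline (0 h) or after 1, 12 or 24 h in starvation medium with EGF, which binds EGFR, with HRG (heregulin), which binds HER3 and HER4, or with water as the control. Each of the 20 groups had 2 libraries, and nothing in the labels says whether these came from separate cultures, so p-values measure the spread between these libraries, which may be technical.

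HOX genes encode homeodomain transcription factors that set position along the body axis. In each cluster the genes lie in the order of their paralog numbers, and genes of low number are used in anterior and genes of high number in posterior parts of the embryo. Adult epithelia, the mammary gland included, keep a subset of HOX genes active while Polycomb complexes hold the others silent, and HOX factors bind DNA with partners of the PBX and MEIS families. A region counted as open in a library whose list had a peak in it. The strength of a peak was given as its rank percentile, which places the authors' peak score among all peaks of the same library, where 100 is the highest score and 0 stands for no peak.

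The sequences of 5 regions carry the comparisons described later, and each is shown as 300 bases of the plus strand of GRCh38 (hg38) around the summit of its highest-ranked peak. The first lies in an intron of HOXC4 and ranked higher after ligand, and its capitals mark a match to the AP-1 motif TGANTCA, the site of FOS and JUN factors.

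HOXC4 intron, chr12:54036902-54037201: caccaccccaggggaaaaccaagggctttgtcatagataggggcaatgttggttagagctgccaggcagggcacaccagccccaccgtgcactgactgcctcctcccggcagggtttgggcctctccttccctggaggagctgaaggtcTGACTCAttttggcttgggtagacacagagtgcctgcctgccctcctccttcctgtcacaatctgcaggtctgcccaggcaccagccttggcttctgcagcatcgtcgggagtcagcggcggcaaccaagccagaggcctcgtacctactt

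The region between HOXB2 and HOXB3 ranked lower after ligand in BT474, and capitals mark a match to the GATA motif AGATAA.

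HOXB2 to HOXB3, chr17:48546974-48547273: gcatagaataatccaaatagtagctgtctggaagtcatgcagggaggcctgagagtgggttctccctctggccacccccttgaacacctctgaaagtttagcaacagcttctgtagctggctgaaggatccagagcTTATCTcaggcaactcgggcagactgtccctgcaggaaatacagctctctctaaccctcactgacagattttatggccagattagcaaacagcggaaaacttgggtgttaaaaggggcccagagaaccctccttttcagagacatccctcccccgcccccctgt

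The HOXB3 intron had peaks only in BT474R libraries, and capitals mark matches to the forkhead motif TGTTTAC and the PBX-HOX motif TGATTNAT.

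HOXB3 intron, chr17:48563569-48563868: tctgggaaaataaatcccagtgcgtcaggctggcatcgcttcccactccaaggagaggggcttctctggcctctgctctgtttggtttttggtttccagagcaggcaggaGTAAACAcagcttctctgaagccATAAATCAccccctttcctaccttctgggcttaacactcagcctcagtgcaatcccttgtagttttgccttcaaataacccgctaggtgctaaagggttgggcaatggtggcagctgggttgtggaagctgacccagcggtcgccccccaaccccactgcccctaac

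The last sequences are the HOXB6 start, which ranked higher in BT474R, and a region near a HOXA10 start, which was open mainly in BT474. Capitals mark the CpG dinucleotides.

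HOXB6 start, chr17:48603889-48604188: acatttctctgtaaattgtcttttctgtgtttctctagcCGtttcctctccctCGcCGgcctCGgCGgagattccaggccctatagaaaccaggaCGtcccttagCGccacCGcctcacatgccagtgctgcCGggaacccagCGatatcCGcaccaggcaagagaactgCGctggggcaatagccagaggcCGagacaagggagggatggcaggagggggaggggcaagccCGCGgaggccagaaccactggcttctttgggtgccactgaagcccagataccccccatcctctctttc
HOXA10 start, chr7:27173189-27173488: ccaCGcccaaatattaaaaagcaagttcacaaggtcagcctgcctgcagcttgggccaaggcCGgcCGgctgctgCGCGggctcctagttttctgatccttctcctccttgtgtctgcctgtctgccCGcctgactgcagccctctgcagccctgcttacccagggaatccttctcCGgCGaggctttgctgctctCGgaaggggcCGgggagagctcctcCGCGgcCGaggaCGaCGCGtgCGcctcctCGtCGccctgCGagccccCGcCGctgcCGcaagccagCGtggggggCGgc

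The 300-base windows of the HOX regions differed from those of other regions in their base composition. CpG dinucleotides were at more than 0.6 of the number expected from the C and G content in 35 of 64 HOX windows (54.7%) against 20.1% of all windows, and the median GC content was 58.0% against 50.7%. All motifs were searched on both strands in windows of the same length. AP-1 (TGANTCA) was found in 2 of 64 HOX windows (3.12%) and in 19.3% of all windows. CTCF was found in 0 HOX windows and in 5.01% of all windows, and PBX-HOX (TGATTNAT) in 3 HOX windows (4.69%) and 4.64% of all. The forkhead motif shown above matched 4 HOX windows (6.25%) and 10.3% of all windows, and the GATA motif shown above matched 6 (9.38%) and 13.9%. The motif of TEAD factors (GGAATG) matched 7 HOX windows (10.9%) and 18.9% of all windows. The HOXB6 and HOXA10 windows printed above held 15 and 25 CpG dinucleotides, which were 0.558 and 0.743 of expectation.

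The 40 libraries listed 32479 to 56846 peaks on chromosomes 1 to 22 and X, and the read depth behind the lists is unknown. In BT474, the lists held 47571 to 56846 peaks, and in BT474R 32479 to 56494. The shortest BT474R lists were those of control and EGF at 12 h, with 32479 to 40331 peaks. The promoters of all 7 luminal epithelial markers (KRT8, KRT18, KRT19, EPCAM, GATA3, FOXA1 and ERBB2) were open in all 40 libraries. Of 8 markers of other cell types, KRT14, PTPRC, CD3E, COL1A2 and PECAM1 were open in 0 libraries, VIM and COL1A1 were open in all 40, and KRT5 was open in 7 BT474 and 14 BT474R libraries.

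HOXB had the highest ranks and the most regions that were open throughout, and HOXD had the fewest regions for its length. HOXC and HOXB held 18.7 and 17.8 regions per 100 kb, HOXA 10.2 and HOXD 5.85, whereas the assembled chromosomes as a whole held 2.36. Of the 64 HOX regions, 27 (42.2%) were open in all 40 libraries against 35.1% of all regions, and these were 14 of 23 at HOXB, 9 of 23 at HOXC, 2 of 12 at HOXA and 2 of 6 at HOXD. The median over HOXB regions of the median percentile was 64.2 in BT474 and 57.8 in BT474R, and 43.7 and 49.4 over the 174 regions within 1 Mb of the cluster. For HOXA the values were 36.1 and 17.2 with flanks at 28.6 and 37.8, for HOXC 45.6 and 25.4 with flanks at 35.8 and 27.1, and for HOXD 41.6 and 22.98 with flanks at 4.08 and 7.23. Over all regions the values were 26.9 and 19.1.

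Peak width moved with these levels. The authors' score is an area, so it grows with the width of a peak, and the median width was 832 bp for HOX regions and 551 bp for all regions. With the score divided by the peak width before ranking, the median over HOX regions was 25.7 in BT474 and 22.8 in BT474R, beside 27.6 and 19.6 over all regions. The HOX regions as a whole were then no longer above all regions in BT474, while in BT474R they still were. HOXB remained at 53.0 and 50.7 on this scale, HOXA was at 22.2 and 11.6, HOXC at 29.5 and 23.9, and HOXD at 23.7 and 11.5.

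**Figure D1:**
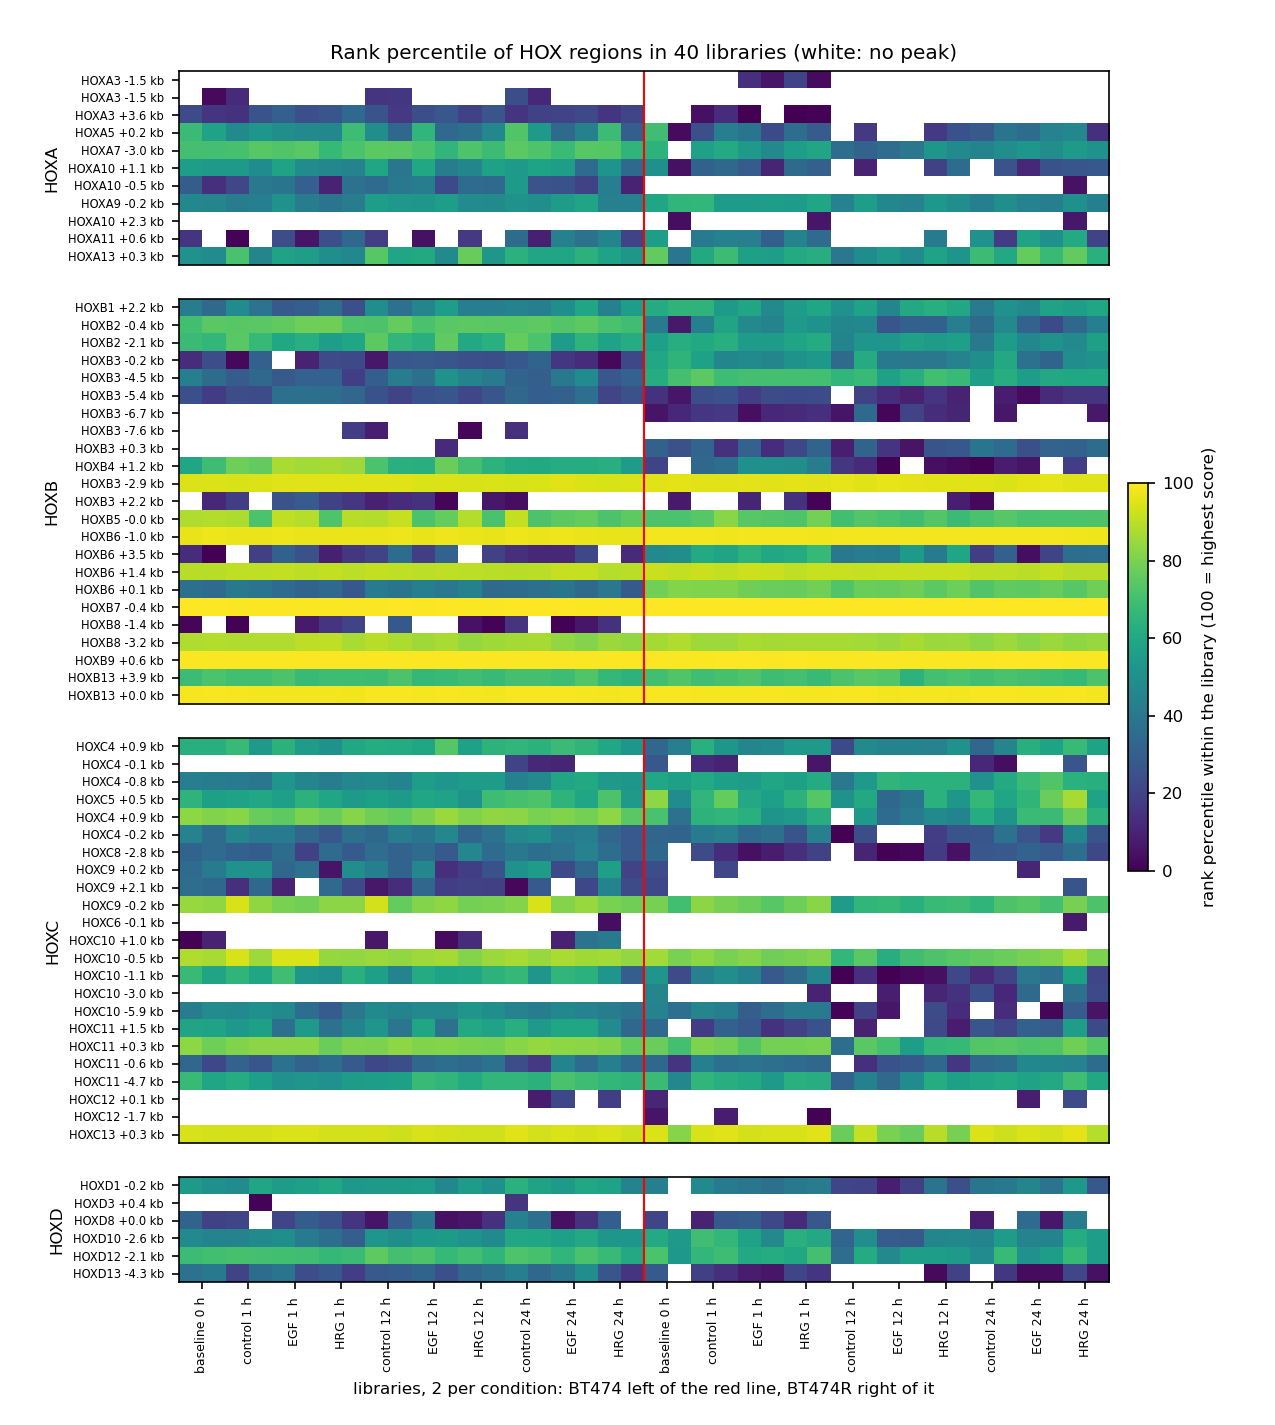
Rank percentile (color, 0 to 100) of the HOX regions (lines, named by the nearest gene start and the distance of the region's midpoint from it in kb, ordered from low to high paralog numbers) in each of 40 libraries (columns), with white for no peak. HOXB holds 14 regions that are open in every library, while HOXA falls to 3 open regions in 3 of the 12 h libraries of BT474R.

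The highest-ranking region of the clusters lay between HOXB7 and HOXB8, which encode central-group factors. This region (chr17:48609011-48613824) was 4814 bp wide and covered the starts of both genes. Its percentile ranged from 99.4 to 99.7 in the 20 BT474 libraries (median 99.6) and from 99.86 to 99.92 in BT474R (median 99.9). With the score divided by width, its medians were 94.4 and 93.4. The HOXB9 start (chr17:48624484-48626970) had medians of 99.5 and 99.6, and the start of the posterior gene HOXB13 (chr17:48727685-48729752), which lies apart from the rest of the cluster, had medians of 98.7 and 98.8. In BT474 and BT474R, 6 of 23 HOXB regions had a median above 90. The same limit was passed by 6.94% of all regions in BT474 and 6.33% in BT474R.

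The other clusters had lower maxima. HOXC was led by the start of HOXC13 (chr12:53938147-53940033), a posterior gene known for its role in hair and nail formation, with a percentile of 92.3 to 95.1 in BT474 (median 93.6) and 76.7 to 95.8 in BT474R (median 93.4). By the median over the 40 libraries, HOXA was led by a region between HOXA7 and HOXA9 (chr7:27160477-27161438) with 65.5 to 74.99 in BT474 (median 72.1) and 0 to 64.7 in BT474R (median 50.2). Within BT474R, the HOXA13 start (median 60.6) and a region in a HOXA10 intron at a HOXA9 start (chr7:27175142-27175574, median 51.8) stood higher. HOXD was led by a region at -2.10 kb from the HOXD12 start (chr2:176097276-176098124) with 60.5 to 75.2 in BT474 (median 69.7) and 35.6 to 71.8 in BT474R (median 57.7). Its range in BT474R thus overlapped that of BT474.

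**Figure D2:**
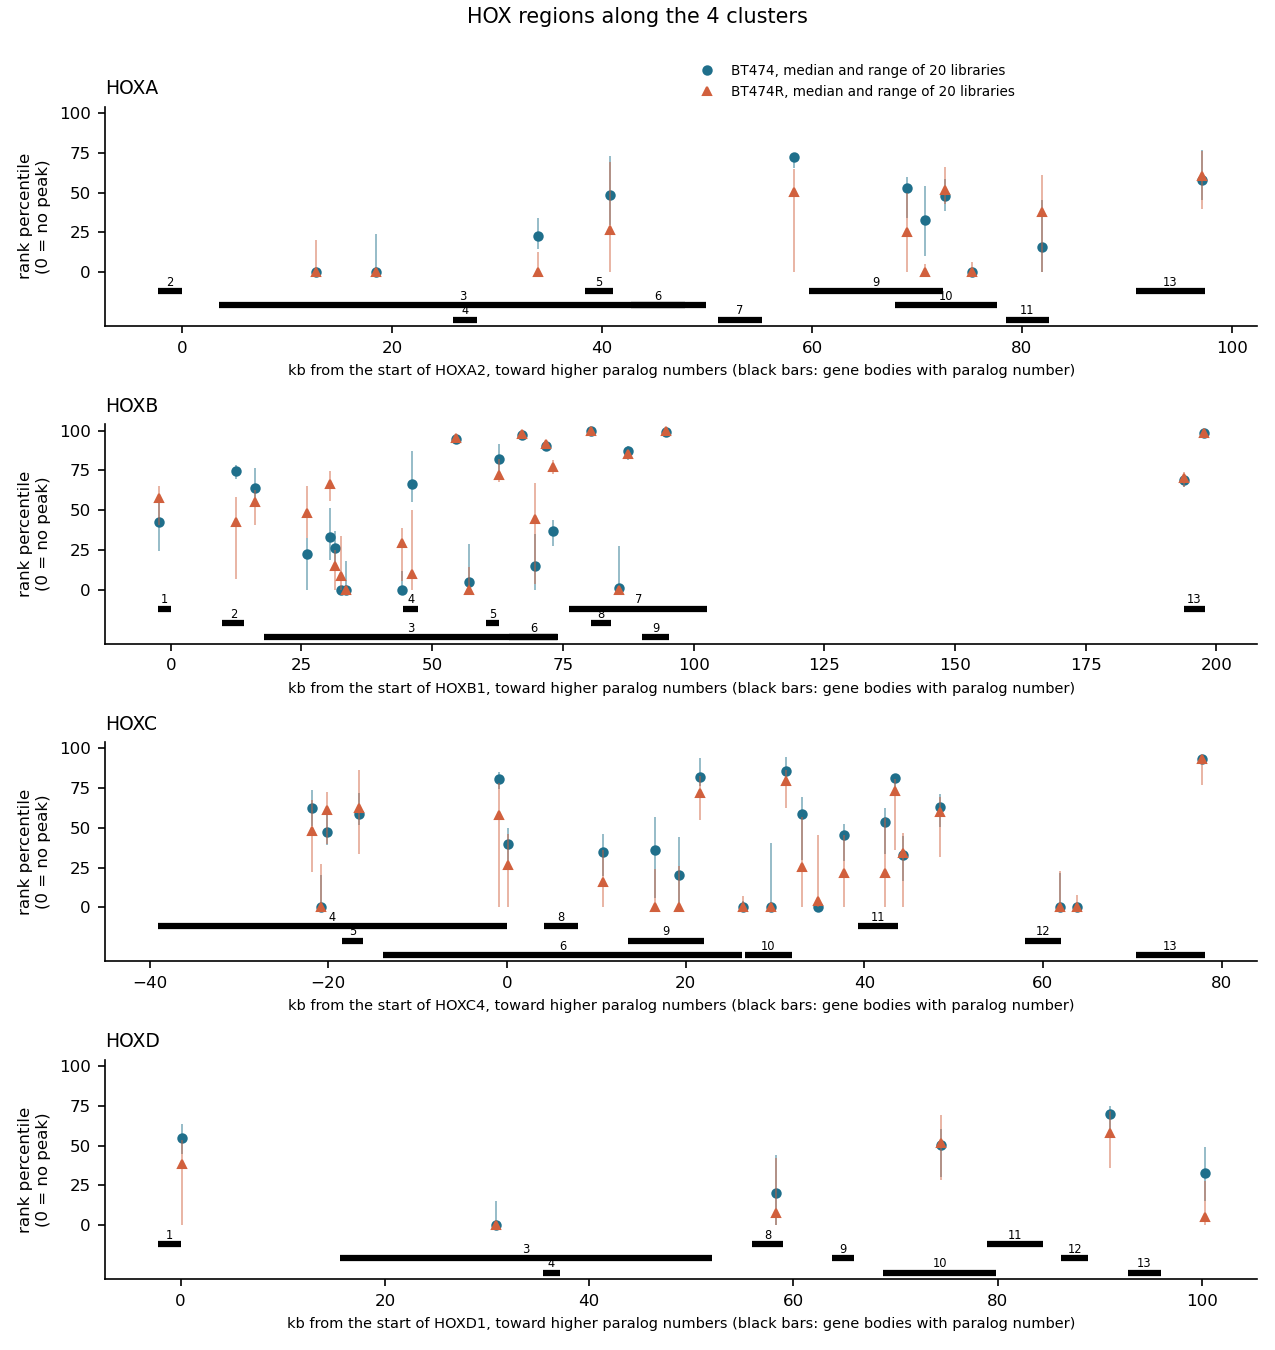
Rank percentile of the HOX regions (y axis, 0 is no peak) along each cluster (x axis, kb from the start of the gene named under it), with the median and the range of 20 BT474 (circles) and 20 BT474R libraries (triangles) and the gene bodies as black bars. The highest percentiles of the clusters, up to 99.9, lie between HOXB6 and HOXB9 and at HOXB13.

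At the level of promoters, 18 of 39 HOX genes (46.2%) had a peak within 1 kb of an annotated start in all 40 libraries and 13 (33.3%) in none, compared with 56.3% and 28.1% of 19970 protein-coding genes. A gene counted as open at any of its annotated starts, so a peak could count for neighbouring genes. For HOXA9 and HOXA10, the only region near a start that was open in all 40 libraries was shared (chr7:27175142-27175574, in a HOXA10 intron). For HOXC6 it was shared with HOXC9 (chr12:53993953-53996602), and for HOXB3 it lay at the HOXB6 start (chr17:48603610-48604448). The anterior genes, of low paralog number, differed among themselves. HOXB2 and HOXB3 were open in all 40 libraries and HOXD1 in 20 BT474 and 19 BT474R libraries, while HOXA2, HOXA3 and HOXB1 were open in 0 and HOXD3 in 2. Of the genes with paralog number 4, HOXC4 was open in all 40 libraries, HOXB4 in 19 and 1, and HOXA4 and HOXD4 in 0. Among the central genes, HOXB5, HOXB6, HOXB7, HOXB8, HOXC5 and HOXC6 were open in all 40 libraries. HOXA6, HOXA7 and HOXC8 were open in 0. HOXA5 was open in 20 BT474 and 17 BT474R libraries, and HOXD8 in 18 and 11 (Fisher's exact test, adjusted p 0.446).

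The posterior genes of HOXA, HOXB and HOXC were mostly open. HOXA9, HOXA10, HOXA13, HOXB9, HOXB13, HOXC9, HOXC10, HOXC11 and HOXC13 were open in all 40 libraries, HOXA11 in 15 BT474 and 14 BT474R libraries, and HOXC12 in 3 of each. In HOXD, the promoters of HOXD9, HOXD10, HOXD11, HOXD12 and HOXD13 were open in 0 libraries, although 2 regions near them were open in all 40. The peak lists hold peaks with a score of at least 200, so weaker accessibility at the genes without a peak was not detectable.

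**Figure D3:**
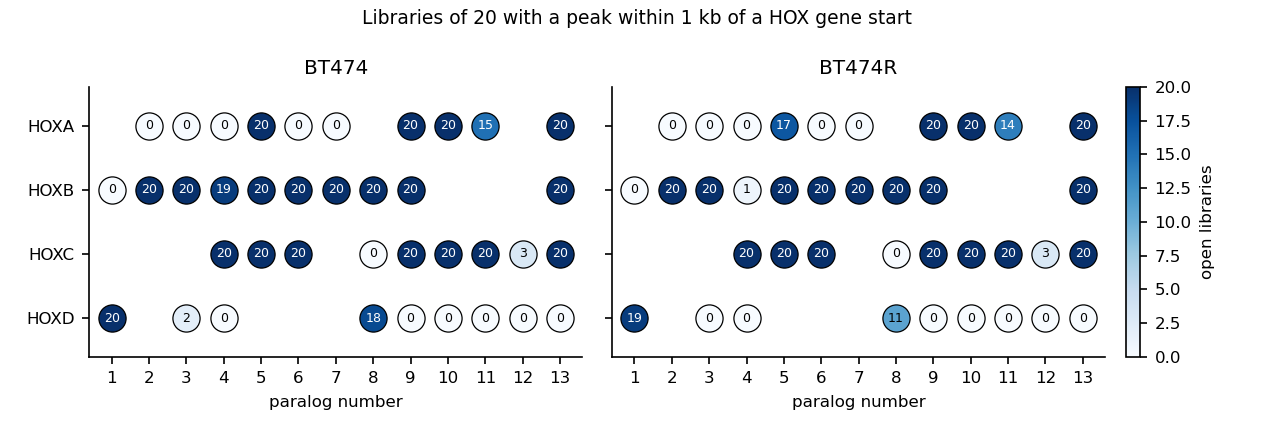
Number of libraries of 20 (color and digits) with a peak within 1 kb of a HOX gene start, by cluster (y axis) and paralog number (x axis), in BT474 (left) and BT474R (right). HOXB4 differs between the panels, with 19 open libraries in BT474 and 1 in BT474R.

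The clusters also hold microRNA genes. MIR615 lay inside a region at HOXC5 that was open in all 40 libraries. The gap to the nearest HOX region was 1.81 kb for MIR196B (open in 20 BT474 and 16 BT474R libraries) and 2.13 kb for MIR10A (20 and 16), 1.11 kb for MIR196A2 (1 and 1), 5.52 kb for MIR196A1 (20 and 20) and 7.14 kb for MIR10B (2 and 0).

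The first comparison asked how the clusters differ between the sensitive and the resistant line, over the same 10 conditions. The number of open HOXB regions had the same range in both lines, while that of the other clusters reached lower in BT474R. HOXB had 18 to 21 open regions in the libraries of each line. HOXA had 8 to 10 open regions in BT474 and 3 to 10 in BT474R, HOXC had 16 to 20 and 11 to 21, and HOXD had 4 to 6 and 2 to 5. In total, 48 to 55 HOX regions were open in BT474 libraries and 36 to 54 in BT474R. The 4 lowest totals of BT474R, from 36 to 41, came from control at 12 h (replicate 1), both EGF libraries at 12 h and baseline (replicate 2). Their lists held 32479 to 44546 peaks. Some BT474R lists shorter than that of baseline replicate 2 had more open HOX regions, such as control at 12 h replicate 2 with 40331 peaks and 44 regions. The part of list length in these counts was not tested.

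In BT474R, the number of open HOX regions was lowest at 12 h in the control and EGF arms. In the BT474R control arm it was 49 to 51 at 1 h, 36 to 44 at 12 h and 45 to 48 at 24 h, with EGF 48 to 50, 37 to 40 and 45 to 48, and with HRG 50 to 54, 46 to 47 and 46 to 53. The share of all regions open also fell, in control from 71.9 to 73.6% at 1 h to 42.2 to 52.6% at 12 h. The shares of HOX regions at these times were 76.6 to 79.7% and 56.25 to 68.75%. With EGF at 12 h, 49.1 to 50.1% of all regions and 57.8 to 62.5% of HOX regions were open. The baseline libraries of BT474R had 53 and 41, and both baseline libraries of BT474 had 51. In BT474 the control arm had 48 to 51 at 1 h, 51 to 53 at 12 h and 52 to 55 at 24 h.

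At baseline, 2 HOX regions were open in both BT474R libraries and in neither BT474 library (background 8.8%), and 3 were open the other way round (background 8.58%). These values rest on 2 libraries a line and have no test.

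By presence, 9 of 64 HOX regions (14.1%) differed between the lines (Fisher's exact test on 20 against 20 libraries, adjusted p below 0.05 over all regions), against 29.3% of all regions. Of these, 6 were open more often in BT474 (background 18.4%) and 3 in BT474R (background 11%). Of the 9, 8 remained called with the 12 h libraries of both lines left out, a check chosen after seeing the data, and the HOXC10 intron was not. The total depended on how peaks were taken. With all lists cut to the length of the shortest it was 14 of 51 regions (27.5% against 28.9% of all regions), with 6 more often open in BT474R and 8 in BT474, and over all regions the counts went from 7842 and 13141 to 6398 and 6797. At a score of at least 400 it was 17 of 50 (34.0% against 29.7%), with 3 in BT474R and 14 in BT474. It was 16 of 76 with peaks trimmed to 400 bp (21.1% against 29.4%) and 18 of 64 where at least 50% of a region had to be covered (28.1% against 34.9%). The HOX share was thus below that of all regions in these settings except at a score of at least 400, and the gap was small with lists of equal length.

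Of the regions open more often in BT474, 2 lay in HOXA, 3 in HOXC and 1 in HOXB. The region at -0.482 kb from an annotated start of HOXA10 (chr7:27172980-27173911, with its midpoint in a coding exon) was open in 20 BT474 libraries with a percentile of 9.89 to 54.0 (median 32.5) and in 1 BT474R library with a percentile of 4.77 (adjusted p 5.8e-09). The intronic HOXA3 region near HOXA5 (chr7:27136468-27136722) was open in 20 and 5 libraries (adjusted p 6.9e-06). At HOXC9, a posterior gene, the region at an annotated start inside the gene (chr12:53999914-54000763) was open in 20 and 3 libraries (adjusted p 3.2e-07). Its percentile was 5.81 to 56.8 in BT474 (median 36.3) and up to 23.9 in BT474R, so the lines overlapped. The region over the 5′ start of HOXC9 (chr12:53993953-53996602) was open in all 40 libraries. The neighbouring intronic region (chr12:53997229-53998020) was open in 18 and 2 libraries (adjusted p 5.3e-06). The remaining regions were in an intron of HOXC10 (chr12:53987064-53987738, 8 and 0 libraries, adjusted p 0.013) and near HOXB8 (chr17:48616322-48617074, 12 and 0 libraries, adjusted p 0.00027).

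The regions open more often in BT474R included a pair in HOXB3. The region at the 3′ side of HOXB4 (chr17:48574867-48575603), which covers an annotated start of HOXB3, was open in 20 BT474R libraries with a percentile of 5.38 to 38.8 (median 29.4) and in 1 BT474 library with a percentile of 11.8 (adjusted p 5.8e-09). The HOXB3 intron printed above (chr17:48563266-48564032) was open in 16 BT474R libraries, with a percentile of up to 34.1, and in 0 of 20 BT474 libraries (adjusted p 1.6e-06). The third region lay between HOXC11 and HOXC10 (chr12:53981709-53982450) and was open in 10 BT474R and 0 BT474 libraries (adjusted p 0.0021). At the HOXB4 side the single open BT474 library lay within the BT474R range, while at the HOXB3 intron and the HOXC10 region the lines shared only libraries without a peak.

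HOXB4 was the HOX gene whose promoter differed between the lines, and its 5′ and 3′ sides moved in opposite directions. The promoter had a peak in 19 BT474 libraries and in 1 BT474R library, HRG at 1 h replicate 1 (Fisher's exact test, adjusted p 4.2e-07 over 19970 genes). This was 1 of 39 HOX genes (background 4.22% of genes more often open in BT474 and 0.656% in BT474R). The promoter count needs a peak that reaches within 1 kb of a start. The region across the HOXB4 intron (chr17:48576622-48577711) was itself open in 20 BT474 and 16 BT474R libraries, which was not called (adjusted p 0.26 by Fisher's exact test). Its percentile was 55.3 to 87.3 in BT474 (median 66.8) and 0 to 50.1 in BT474R (median 9.76), with no overlap between the lines. The region at the 3′ side, described above, went the other way. The HOXB4 call was lost when peaks within 3 kb of a start were counted, where 0 HOX genes were called, and it stood with the 12 h libraries left out.

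**Figure D4:**
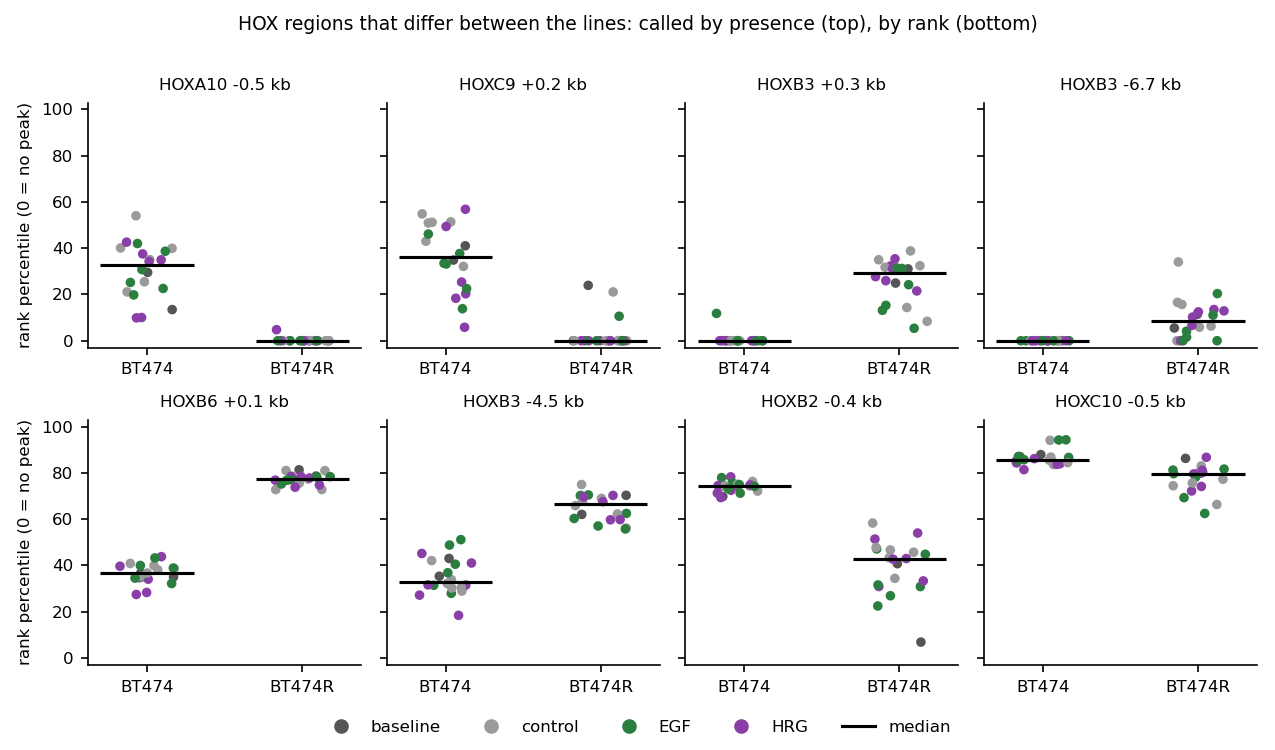
Rank percentile (y axis, 0 is no peak) of 8 HOX regions in the 20 libraries of each line (x axis), with points colored by arm and bars at the medians. The upper panels show regions called by presence in each direction and the lower panels those with the smallest p by rank in each direction, of which the HOXB6 start has medians of 36.8 in BT474 and 77.2 in BT474R.

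Where a region was open in every library, the lines were compared by rank percentile with limma. Of 27 HOX regions tested, 9 were higher and 12 lower in BT474R, compared with 32.6% and 50.2% of 25166 regions. On a log2 score scale centered on each library's median, the HOX counts were 14 and 10 and those over all regions 11079 and 10210 (8198 and 12633 by percentile), and with the score divided by peak width the HOX counts were 4 and 9 and those over all regions 5674 and 9560 (48.1% of HOX regions against 60.5% of all). Within HOXB, neighbouring regions moved in opposite directions. The HOXB6 start (chr17:48603610-48604448), an alternative start of a central gene, had a percentile of 27.5 to 43.8 in BT474 (median 36.8) and 72.8 to 81.4 in BT474R (median 77.2), and the lines did not overlap. The difference was 40.5 points (SE 1.02, adjusted p 6.7e-20 by limma). The HOXB3 intron region (chr17:48561070-48561862) had 18.4 to 51.2 in BT474 and 55.8 to 74.99 in BT474R, a difference of 29.7 points (SE 1.496, adjusted p 1.2e-14 by limma). In contrast, the region at HOXB2 (chr17:48543054-48543990), which encodes an anterior factor of hindbrain patterning, had 69.4 to 78.3 in BT474 and 6.87 to 58.3 in BT474R, with a difference of -34.8 points (SE 2.13, adjusted p 4.3e-13 by limma). Differences of these 3 regions had the same sign on the log2 and per-width scales.

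The other regions named by the smallest p moved less or depended on the scale. The HOXC4 intron (chr12:54036797-54037260) was higher in BT474R by 10.8 points (SE 1.14) and by 4.26 with the score divided by width. The HOXC10 start (chr12:53984628-53986703) and the region between HOXB2 and HOXB3 (chr17:48546563-48547767) were lower in BT474R, with differences of -9.16 points (SE 0.886) and -10.7 points (SE 1.48). The region at -1.15 kb from a HOXC10 start (chr12:53983313-53984521) had a difference of -30.6 points (SE 3.22) but of 8.10 with the score divided by width, and a region at HOXC9 (chr12:53993953-53996602) had -10.9 (SE 1.46) and 1.97. The regions at HOXB6 (chr17:48597180-48599023) and HOXB7 to HOXB8 (chr17:48609011-48613824) were higher in BT474R by 1.02 and 0.329 points, and their signs turned to -0.422 and -1.08 with the score divided by width, where neither was called.

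Genes that act with or upon the HOX clusters were compared by promoter presence. Of 9 genes for the TALE cofactors that bind DNA with HOX proteins, MEIS3 was open in 20 BT474 libraries and 0 BT474R libraries (adjusted p 2.0e-09 by Fisher's exact test). Over all 19970 genes, 4.22% were called more often open in BT474 and 0.656% in BT474R. Of the 9 cofactor genes, 5 (55.6%) were open in all 40 libraries, against 56.3% of all genes. Of 13 other HOX-like homeobox genes, GBX1 was open in 19 and 4 libraries (adjusted p 9.5e-05 by Fisher's exact test). In this list 7 genes (53.8%) were open in none, against 28.1% of all genes. None of 17 Polycomb subunit genes was called in either direction, and EED, a core subunit of a Polycomb repressive complex, came nearest with 20 and 12 open libraries (adjusted p 0.061 by Fisher's exact test, chosen after its values were seen). EED, PHC1, BMI1 and CBX7 (4 of 17, all open more often in BT474) had an unadjusted p below 0.05, which 6.75% of all genes had in that direction and 1.11% in the other. Of 9 Trithorax and opposing genes and 6 retinoic acid receptor genes, 0 were called by Fisher's exact test, and 0 had an unadjusted p below 0.05.

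The second comparison asked whether EGF or HRG changed accessibility of the clusters relative to the control of the same time. Presence hardly changed. A single HOX region was called at an unadjusted p below 0.05. It lay in an intron of HOXA3 (chr7:27120810-27121454), had a peak in 5 of 6 BT474 control libraries with a percentile of 11.4 to 24.1, and had none in 6 EGF and 6 HRG libraries (unadjusted p 0.0152 by Fisher's exact test for each ligand). At baseline it was open in 1 of 2 BT474 libraries at 2.63, and it was open in 0 of 20 BT474R libraries. The loss was not called at a score of at least 400 or with lists of equal length. This was 1 of 64 HOX regions lost with EGF (background 0.0433%) and 1 of 64 with HRG (background 0.311%), and both comparisons share the control libraries. No HOX region was gained in BT474 with EGF (background 1.15%) or HRG (background 1.33%), nor in BT474R (background 0.349% and 0.207%). No HOX region was lost in BT474R with EGF (background 0.0391%) or HRG (background 0%). After adjustment over all 71600 regions, Fisher's exact test called 0 regions of any kind in the 4 comparisons. At an unadjusted p below 0.05, it called 824 gained and 31 lost regions for EGF and 949 and 223 for HRG in BT474, and 250 and 28 for EGF and 148 and 0 for HRG in BT474R.

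By rank, few HOX regions changed with EGF in BT474. Of 44 HOX regions tested, 2 were higher (background 17.6%) and 1 was lower (background 1.19%) by limma. On the log2 scale 2 were higher and 10 lower, while over all regions the counts went from 6483 higher and 438 lower to 4433 and 6034. The BT474 lists held 48788 to 52331 peaks in control, 48883 to 56846 with EGF and 47571 to 53484 with HRG. The part of list length in the percentile differences was not tested. The HOXC4 intron, which lies at -0.826 kb from a HOXC4 start and holds the AP-1 match, was called higher with EGF in both lines. In BT474, its percentile was 39.3 to 47.7 in control (median 44.4), 45.9 to 60.7 with EGF (median 53.9) and 42.3 to 55.1 with HRG (median 53.4), and 42.1 and 42.9 at baseline. The EGF libraries at 12 and 24 h all lay above the highest control library. Averaged over time, EGF raised it by 10.1 points (SE 1.59, adjusted p 0.00053 by limma) and HRG by 6.87 points (SE 1.59, adjusted p 0.0078 by limma). At 24 h the EGF libraries stood at 59.0 and 60.7 and the control libraries at 43.8 and 47.3, a difference of 14.3 points (SE 2.75, adjusted p 0.0040 by limma).

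The same region started higher in BT474R, with 56.7 and 59.6 at baseline. Its range was 39.9 to 61.3 in control (median 55.1), 55.3 to 72.9 with EGF (median 64.7) and 57.0 to 64.2 with HRG (median 63.4). Averaged over time, EGF raised it by 10.3 points (SE 2.62, adjusted p 0.019 by limma). HRG raised it by 17.1 points at 12 h (SE 4.54, adjusted p 0.027 by limma), but it was not called with HRG averaged over time. At 1 h the EGF libraries stood at 55.3 and 58.6, against 61.3 and 56.3 in control. At 24 h they stood at 68.2 and 72.9, against 50.5 and 61.0 in control. The 12 h control libraries, which also had short peak lists, stood at 39.9 and 53.9, against 65.5 and 63.9 with EGF and 63.7 and 64.2 with HRG. With the score divided by width, the EGF difference was 9.61 points in BT474 (adjusted p 0.063 by limma) and 15.8 points in BT474R (adjusted p 0.013 by limma).

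A region at -0.578 kb from the start of HOXC11 (chr12:53972334-53972762), a posterior gene, rose with both ligands in BT474. Its percentile was 16.7 to 31.4 in control (median 23.7), 31.8 to 44.9 with EGF (median 35.5) and 28.2 to 43.4 with HRG (median 34.7), so that all EGF libraries lay above all control libraries. The differences were 12.4 points for EGF (SE 2.89, adjusted p 0.0080 by limma) and 11.4 points for HRG (SE 2.89, adjusted p 0.013 by limma). The baseline libraries stood at 21.5 and 33.2. In BT474R it was not open in every library, with 0 and 13.7 in control at 12 h, and was not tested by rank. With the score divided by width the differences were 20.6 points for EGF and 20.04 for HRG (SE 7.47 for each), and neither was called (adjusted p 0.14 for each by limma).

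HRG lowered several HOX regions in BT474. The ligands share their controls and were not tested against each other. With HRG, 2 of 44 were higher (background 13%) and 6 lower (background 5.71%) by limma, and on the log2 scale 2 were higher and 10 lower, with 4516 and 5015 over all regions (4771 and 2104 by percentile). The region between HOXB2 and HOXB3 stood at 65.8 to 76.3 in control (median 73.0), 55.3 to 75.6 with EGF (median 62.7) and 55.8 to 63.5 with HRG (median 59.9), so that all HRG libraries lay below all control libraries. The difference was -11.9 points for HRG (SE 2.61, adjusted p 0.0059 by limma) and -8.13 for EGF (SE 2.61, adjusted p 0.044 by limma), and the EGF call was lost when any 1 of 14 of the 20 libraries was left out. The baseline libraries, at 66.3 and 68.0, lay within the control range. The region at an upstream start of HOXC4 (chr12:54016564-54016963) fell with HRG by 10.7 points (adjusted p 0.012 by limma), and its 24 h libraries stood at 33.0 and 28.0 against 47.0 and 49.6 in control. Over all times it had 33.5 to 49.6 in control (median 43.7) and 27.2 to 37.2 with HRG (median 32.9), so the arms overlapped.

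The other 4 regions lowered by HRG in BT474 lay at posterior genes. The HOXB13 start had 98.4 to 99.2 in control (median 99.1) and 98.0 to 98.5 with HRG (median 98.3), with a small overlap and a difference of -0.632 points (SE 0.110, adjusted p 0.0011 by limma). The region in a HOXD10 intron (chr2:176113883-176114571) had 44.6 to 59.8 in control (median 51.3), 41.6 to 60.4 with EGF (median 53.9) and 30.2 to 52.9 with HRG (median 49.6), and fell with HRG by 7.01 points (SE 1.79, adjusted p 0.014 by limma). Its HRG libraries were lowest at 1 h, at 36.1 and 30.2, against 44.6 and 47.4 in control. The region before HOXD12 had 70.0 to 75.2 in control and 60.5 to 69.6 with HRG, without overlap but with a narrow gap. It fell by 5.39 points (SE 1.66, adjusted p 0.037 by limma). This call was lost when any 1 of 9 of the 20 libraries was left out. The last region lay in a HOXA10 intron at a HOXA9 start (chr7:27175142-27175574) and was named after its values were seen. It had 42.5 to 55.5 in control (median 50.4) and 38.6 to 48.2 with HRG (median 43.7). The arms overlapped, with a difference of -5.21 points (SE 1.70, adjusted p 0.048 by limma). HOXB13 was, with the score divided by width, the only HOX region called with HRG (-3.85 points, adjusted p 0.042 by limma). On that scale the difference was larger but also less precise between HOXB2 and HOXB3 (-16.5 points, SE 4.85, adjusted p 0.054 by limma), at the upstream HOXC4 start (-17.4 points, SE 6.23, adjusted p 0.12 by limma) and before HOXD12 (-14.6 points, SE 5.72, adjusted p 0.16 by limma). In the HOXD10 intron it was -6.73 points (SE 5.33, adjusted p 0.55 by limma), and in the HOXC4 intron 8.18 points (SE 2.82, adjusted p 0.11 by limma).

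In BT474R, 1 of 30 HOX regions was higher with EGF (background 9.8%), the HOXC4 intron described above, and 1 was lower (background 4.37%). The lower region was that in the HOXD10 intron, with 32.7 to 69.5 in control (median 52.0) and 28.2 to 57.5 with EGF (median 45.0). The difference was -11.0 points (SE 3.10, adjusted p 0.031 by limma), and the arms overlapped. On the log2 scale EGF gave 1 higher and 4 lower HOX regions, with 2790 higher and 2955 lower over all regions (2770 and 1236 by percentile). The call of the HOXC4 intron was lost when any 1 of 5 of the 20 libraries was left out (control 1 h replicate 2, control 24 h replicate 1, EGF 1 h replicate 2, EGF 12 h replicate 1 and EGF 24 h replicate 2), and that of HOXD10 when any 1 of 8 was left out. The HOXD10 difference with the score divided by width was -17.4 points (SE 6.77, adjusted p 0.19 by limma). With HRG averaged over time, limma called 0 of 30 HOX regions higher (background 8.17%) and 0 lower (background 0.0283%), and 4 (13.3%) had an unadjusted p below 0.05, against 22.9% of all regions. At 12 h alone, 2 of 30 were higher with HRG (background 14%) and 0 lower (background 0.0283%). These were the HOXC4 intron and a region at -4.66 kb from the HOXC11 start (chr12:53968125-53968801), which stood at 62.0 and 56.8 with HRG and at 31.5 and 43.8 in the 12 h control libraries, whose lists were short (21.7 points, SE 6.66, adjusted p 0.046 by limma). On the log2 scale the HOX counts averaged over time were 0 and 1, with 672 higher and 194 lower over all regions (2309 and 8 by percentile).

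**Figure D5:**
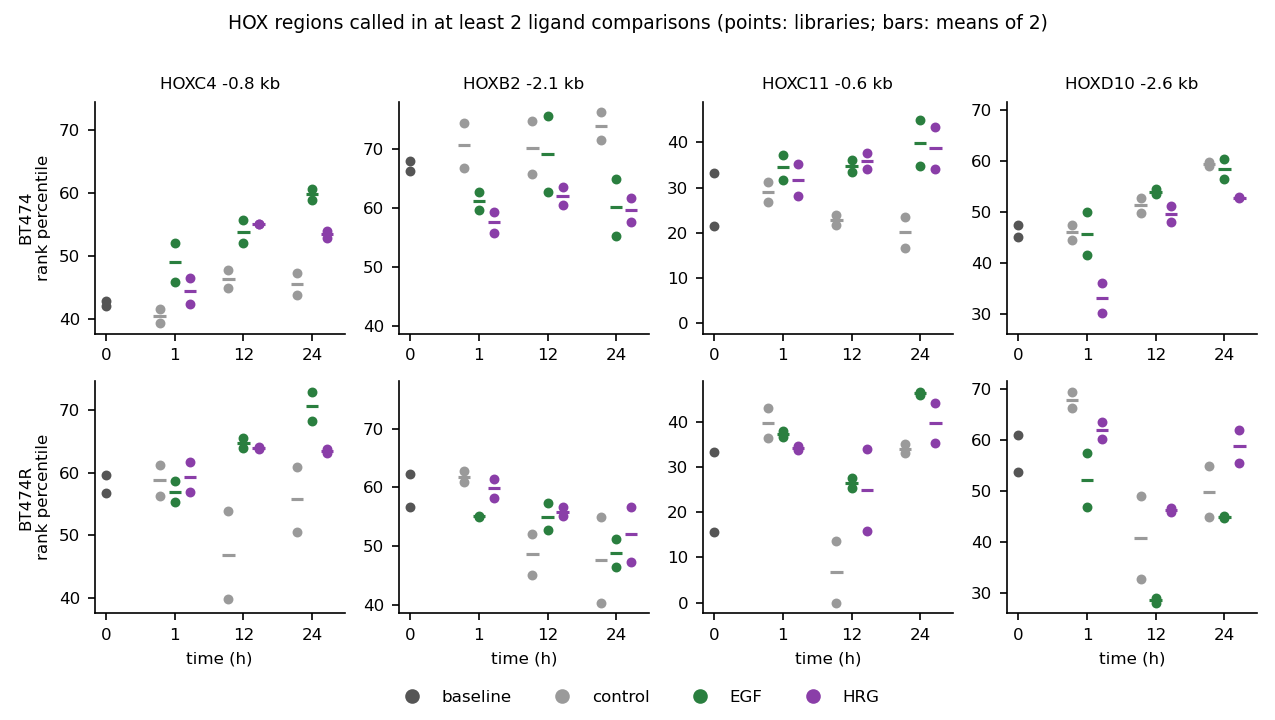
Rank percentile (y axis) of 4 HOX regions by time in h (x axis) in BT474 (upper panels) and BT474R (lower panels), with a point for each library, colored by arm, and bars at the means of 2 libraries. The HOXC4 region in the EGF arm of BT474 reaches 59.0 and 60.7 at 24 h, against 43.8 and 47.3 in control.

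The response to ligand was compared between the lines over the 27 HOX regions open in all 40 libraries. With EGF, limma called 0 HOX regions different between the lines (background 0.421% higher and 2.62% lower in BT474R), and 5 (18.5%) had an unadjusted p below 0.05, against 15.4% of all regions. With HRG, the region between HOXB2 and HOXB3 differed (1 of 27, background 0.779%). HRG lowered it in BT474, while in BT474R its percentile was 40.4 to 62.8 in control (median 53.6) and 47.4 to 61.4 with HRG (median 56.6), and the difference between the responses was 15.0 points (SE 3.82, adjusted p 0.046 by limma). This call was lost on the log2 scale (92 higher and 536 lower over all regions, 196 and 196 by percentile), with the score divided by width (18.2 points, SE 6.25, adjusted p 0.20 by limma) and when any 1 of 28 of the 40 libraries was left out.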

How the data were processed

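ATAC-seq peak lists of 40 libraries were used, with 2 per group. The authors trimmed reads with Trim Galore (0.6.6), mapped them to GRCh38 with BBMap and called peaks with Genrich in each library separately, removing mitochondrial reads and blacklisted regions. Genrich's options, including any shift to the transposase cut sites, were not stated in what was used here. The signal the authors deposited for each peak is an area under the significance curve with a minimum of 200, and it depends on depth and on peak width. The authors also deposited a −log10 p-value and q-value for each peak, which no result here uses. The lists hold no read counts, so depth is unknown, the study's count model was not repeated, and copy number was not measured.

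Groups came from the labels. Genes were those of GENCODE release 44. For each region, the highest signal was converted to its rank percentile within the list. Presence was compared by two-sided Fisher's exact tests (20 against 20 libraries for the lines, 6 against 6 for a ligand and control over 1, 12 and 24 h) and percentile by limma 3.58.1 (R 4.3.3) on group means, over regions open in every library of the fit. Adjusted p-values are Benjamini-Hochberg values over all regions or genes tested. Other steps used Python 3.11.15, pandas 2.3.3 and scipy 1.17.1, and both tests were checked on simulated data. The HOX members, gene lists and comparisons were chosen with earlier results of these data known. Named regions are the highest of each cluster, up to 8 per direction by presence between lines, and up to 5 per direction by smallest p in each other comparison. Other listed genes are named where the lines differed by at least 10 libraries, unless stated. Alternatives covered peak thresholds, list length, peak width, gene windows, filters, scale, replicate number and leaving out each library. Some gene results are not reported here.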

Additional observations from a re-analysis of the deposited data

Results flagged for a closer look

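Within arms of 6 libraries, the highest or lowest library was compared with the others for HOX regions named in the ligand comparisons and for the number of open HOX regions. Each region or count in an arm gave a set of 6 values, and the sets share the same libraries. In 2 of 49 sets a library stood apart, with a gap to its neighbour above 0.625 of the range, and chance gives about 1 in 20. The HOXC11 region had a percentile of 15.8 in HRG at 12 h replicate 2 of BT474R, against 33.8 to 44.3 in the other HRG libraries. The HOXC4 region had 57.0 in HRG at 1 h replicate 1 of BT474R, against 61.7 to 64.2 in the others. The response of the region between HOXB2 and HOXB3 to HRG differed between the lines by 15.0 points, as described above.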

How the results depend on the processing

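The lists hold only peaks past a threshold, so a region without a peak may be weakly open, and a region open in every library can differ only by rank. The number of HOX regions called between the lines by presence rose from 9 to 17 at a score of at least 400, 14 with equal top peaks, 16 with trimmed peaks and 18 with at least 50% coverage, with the shares given above. The HOXA3 call was lost for both ligands with equal top peaks (0 for EGF, 0 for HRG) and at a score of at least 400 (0 for HRG, and for EGF 1 gained and 0 lost). Promoter calls went from 1 to 0 at 3 kb, 2 with equal top peaks (5.13% against 5.43% of all genes) and 4 at a score of at least 400 (10.3% against 7.34%). By rank, the line calls went from 21 of 27 (77.8% against 82.8% of all regions) to 36 of 43 with a peak required in 75% of libraries (83.7% against 83.5%) and to 13 of 27 per width (48.1% against 60.5%). On the log2 scale, the calls were 12 for EGF in BT474, 5 for EGF and 1 for HRG in BT474R, and 1 and 0 for the EGF and HRG differences between lines. With the score divided by width, chosen after seeing the data, they were 0 for EGF and 1 for HRG in BT474, 1 for EGF in BT474R and 0 for the HRG difference, and 4 line differences turned sign (HOXB6 -0.422, HOXB7 to HOXB8 -1.08, HOXC10 8.10, HOXC9 1.97). The cause was not tested.

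Leaving out 1 library at a time gave 9 to 11 line calls by presence, 21 to 23 by rank, 1 promoter throughout, 2 to 4 for EGF and 6 to 10 for HRG in BT474 by rank, 0 to 3 for EGF and 0 to 3 for HRG in BT474R, and 0 to 1 for EGF and 0 to 5 for HRG as differences between lines. By presence, it gave 1 for each ligand in BT474, and 0 to 1 for EGF and 0 for HRG in BT474R. The 1 came without either control library at 12 h. The 5 and, for HRG, the 3 came without control at 12 h replicate 2 of BT474R. For EGF, the 3 came without either baseline, either control library at 12 h or either HRG library at 24 h. The EGF call between HOXB2 and HOXB3 in BT474 was lost when any 1 of 14 of 20 libraries was left out and the HRG call of HOXD12 when any 1 of 9 was. Deviations of same-numbered libraries from their group means had a median correlation of -0.00168 in BT474 and 0.00634 in BT474R. The range over 45 pairs of groups was -0.207 to 0.575 in BT474 and -0.311 to 0.469 in BT474R. Of these pairs, 4 and 10 lay above 0.1. Same-numbered libraries thus did not deviate together as a rule, but some did, and the main tests did not pair them. With the replicate number as a block, line calls were 9 by presence, 1 by promoter and 21 by rank, and ligand calls were 2 and 7 in BT474, 2 and 0 in BT474R, and 0 and 1 for the differences.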

Other observations

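Among the 9 HOX regions called between the lines, the 300-base windows of 4 of 6 regions open more often in BT474 had CpG dinucleotides above 0.6 of expectation, against 0 of 3 open more often in BT474R. The share was 54.7% of the 64 HOX windows, 15 of the 27 HOX regions open in all 40 libraries, and 20.1% of all windows. The numbers are small, and the difference was not tested.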
